A study of Mus musculus with 8 samples.

Results

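The genes described here are 41 genes of DNA replication and DNA repair, measured in blood progenitors of mice with and without a working copy of Cbfb. They were taken from a fixed list of symbols. A gene counted as measured when at least 1 row of the array table carried its symbol and no other. All 41 had such a row, of 19938 genes that did, and only Pcna had more than 1, for which the row of highest mean was used. The list holds 10 genes of origin licensing, 4 of helicase activation, 7 of synthesis at the fork, 3 of nucleotide supply, 6 of the Fanconi core complex, 2 of the Fanconi ID complex, 6 of homologous recombination and 3 checkpoint kinases.

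The study compared 4 groups of bone marrow cells, each with 2 Affymetrix Mouse Gene 1.0 ST arrays. LSK cells (lineage negative, Sca-1 positive, Kit positive) include the stem cells and the multipotent progenitors. GMP cells give rise to granulocytes and macrophages. Knockout (KO) animals were Vav1-iCre x Cbfb(F/F), so both Cbfb alleles could be deleted, and controls (Het) were Vav1-iCre x Cbfb(F/+), with 1 floxed and 1 intact allele. Cbfb encodes the non-DNA-binding partner of the Runx transcription factors, which it helps to hold on DNA, and Vav1 drives the recombinase in blood cells. Het LSK, KO LSK, Het GMP and KO GMP all carried the recombinase, and no wild type was measured, so each genotype effect is KO against Het. Mice were 7 weeks old, on a backcrossed C57BL6 N12 background, and 2 were used per genotype. The 2 arrays of each group are labelled as biological replicates, with no animal named for any of them. Cells were sorted to a purity above 98%, and amplified RNA was hybridised.

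Before a cell divides, the origin recognition complex, Cdc6 and Cdt1 load the ring of Mcm2 to Mcm7 onto DNA. This step is called licensing. Mcm10, Cdc45 and the GINS complex then turn the ring into a moving helicase, and polymerases copy the strands from nucleotides made by ribonucleotide reductase and thymidylate synthase. The Fanconi proteins repair crosslinks between the strands, the BRCA proteins restart or mend forks by homologous recombination, and Atm, Atr and Chek1 halt the cycle while damage persists. Many of these genes are transcribed at the entry into S phase under E2F control, so in bulk samples their level follows how many cells are cycling. Here fewer cells of one kind and less RNA per cell cannot be told apart.

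Values are log2 levels after RMA, a method that summarises the probes of each transcript. A mean is given ± SD over 2 arrays, a difference is between group means on the log2 scale, and SE is limma's standard error. A gene is said to rise or fall only where limma's two-sided test had an adjusted p under 0.05 (Benjamini-Hochberg over all 21789 rows with 1 symbol). All 41 genes lay above the median row on average, and 40 of 41 did so on every array. The exception was Fancb, which was listed at 5.04 on 1 Het LSK array. Levels of different genes rest on different probes and are not compared with each other.

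Cbfb itself was 7.56 and 7.55 on the Het LSK arrays against 6.93 and 6.98 on the KO LSK arrays. The difference of -0.60 did not pass limma's test (adjusted p = 0.0557). In GMP it was 7.53 and 7.65 in Het against 6.48 and 6.96 in KO, a difference of -0.86 that passed (limma adjusted p = 0.0130). The arrays of the 2 genotypes did not overlap in either cell type. The sources used here do not say which part of the gene is deleted or where the probes lie. Between Het GMP and Het LSK, 17.5% of all rows passed limma's test. Of 8 measured LSK markers 8 fell (median difference -2.83), and of 10 granule and GMP markers 10 rose (median 2.77). Between KO GMP and KO LSK fewer passed, 6.05% of all rows. There 5 of 8 LSK markers fell (median -0.97) and 7 of 10 granule and GMP markers rose (median 2.66). Within LSK cells, 4 of 8 LSK markers fell and 1 rose in KO against Het (median -0.68). Over all rows, Pearson correlations were 0.990 to 0.995 within a group and 0.955 to 0.983 between groups.

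The 2 KO LSK arrays stood apart from each other in the genes of replication. KO LSK replicate 1 was the lowest of all 8 arrays for 32 of 41 genes. KO LSK replicate 2 was higher than replicate 1 for 39 of 41, with a median gap of 0.56 against 0.19 over all rows; Fancc and Fancg were the other two. The gap was largest for Fen1, at 6.08 and 7.18, and it was 1.00 for Tyms and 0.98 for Cdc45. The same held for mitosis genes, with replicate 2 higher for 22 of 22 and a median gap of 0.88. In contrast, 7 of 8 LSK markers, 8 of 10 granule and GMP markers and 7 of 9 B cell markers were higher on KO LSK replicate 1. So were 6 of 8 megakaryocyte, 3 of 7 erythroid, 4 of 9 T and NK cell and 5 of 10 mast cell and basophil markers. Only 4 and 2 of the 9 B cell markers lay above the array median on KO LSK replicates 1 and 2. The mean of the 41 genes was 7.07 on KO LSK replicate 1 and 7.63 on replicate 2, while the Het LSK arrays gave 7.58 and 7.35. One KO LSK array therefore lay below both Het LSK arrays, and the other above both.

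**Figure D1:**
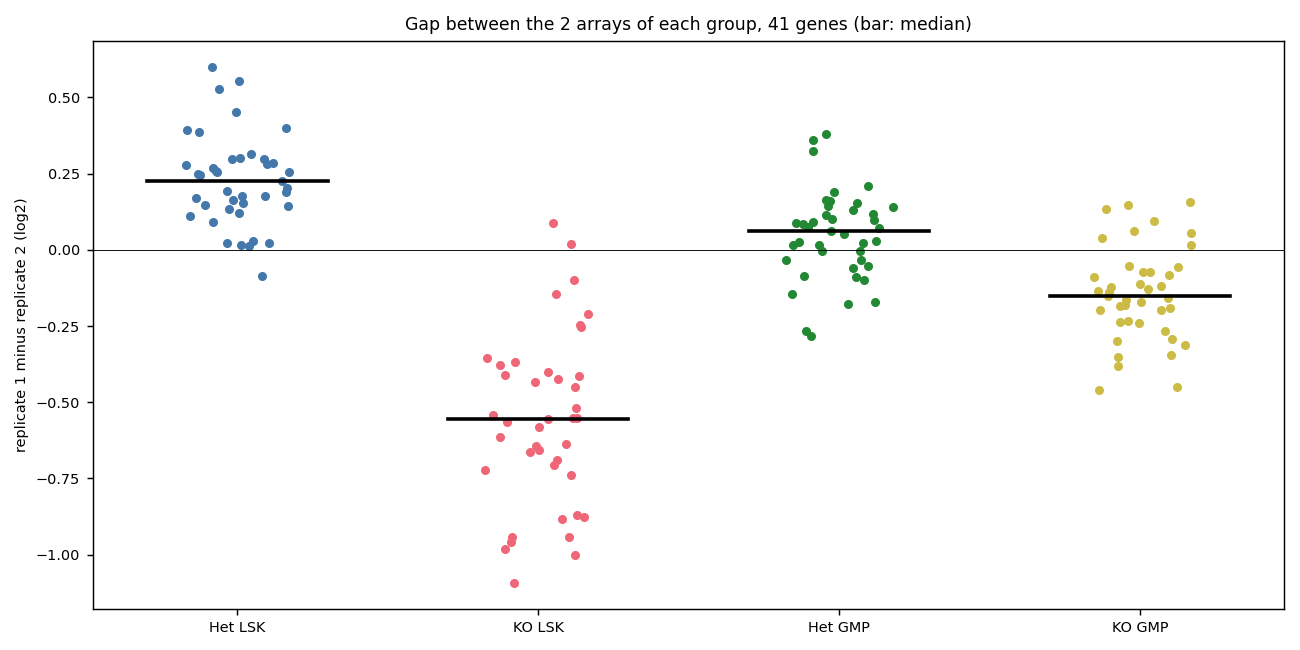
Gap between the 2 arrays of each group for the 41 genes, as replicate 1 minus replicate 2 on the log2 scale (y axis); each point is a gene and each bar the median. The KO LSK points spread widest and lie almost wholly below 0 (39 of 41), and the Het LSK points lie above 0 for 40 of 41.

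Other groups showed smaller gaps. In Het LSK, replicate 1 was higher for 40 of 41 genes, with a median gap of 0.22 against 0.15 over all rows, and only Fancb ran the other way. In KO GMP, replicate 2 was higher for 33 of 41, with a median gap of 0.16, and for 22 of 22 mitosis genes. The Het GMP arrays were closest, with replicate 1 higher for 27 of 41 and a median absolute gap of 0.10 against 0.13 over all rows. Since all groups share 1 estimate of the spread, the KO LSK gap widens the error of every comparison below.

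**Figure D2:**
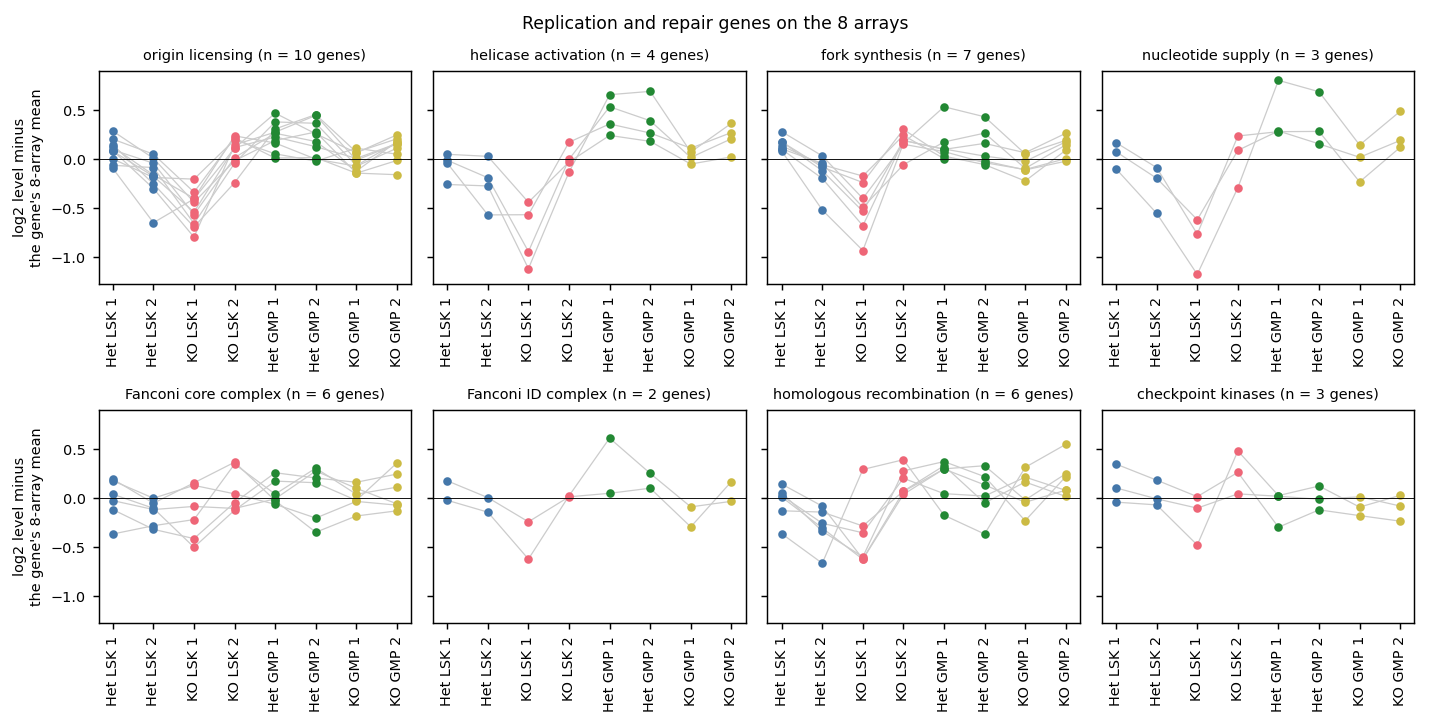
Level of each gene on each of the 8 arrays, as the log2 level minus that gene's mean over the 8 arrays (y axis); points of 1 gene are joined and the panels are the 8 role groups. KO LSK replicate 1 dips in most panels (lowest array for 32 of 41 genes), and the Het GMP arrays sit high for helicase activation and nucleotide supply.

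The first comparison asked what the loss of the second Cbfb allele does in LSK cells. Of the 41 genes, only Blm rose and 0 fell (limma), where 7.73% of all rows passed in either direction. The 41 differences ran from -0.41 for Cdt1 to 0.86 for Blm, with a median of -0.17 against 0.01 over all rows. Altogether 32 of 41 were negative, and 2 had an unadjusted p under 0.05, as did 4268 of the 21789 rows. This median turned with 1 array: it was 0.16 without KO LSK replicate 1 and -0.47 without KO LSK replicate 2.

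Blm encodes a RecQ helicase that dissolves recombination intermediates and limits exchange between sister chromatids. It measured 7.16 and 6.86 in Het LSK against 7.81 and 7.91 in KO LSK. In GMP it measured 7.35 and 7.16 in Het against 7.84 and 8.07 in KO. All 4 KO arrays lay above all 4 Het arrays, and the KO LSK arrays differed by only 0.10. The rise was 0.86 in LSK (SE 0.15, limma adjusted p = 0.00842) and 0.70 in GMP (SE 0.15, limma adjusted p = 0.0263). The GMP effect minus the LSK effect was -0.15 (SE 0.21, limma adjusted p = 0.852). Without Het LSK replicate 2, the LSK difference was 0.70 and no longer passed (adjusted p = 0.0665). The GMP call was lost when any 1 GMP array was left out, with differences of 0.58 to 0.82 and adjusted p of 0.0569 to 0.202. Testing every row, named or not, also ended it (adjusted p = 0.0948).

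**Figure D3:**
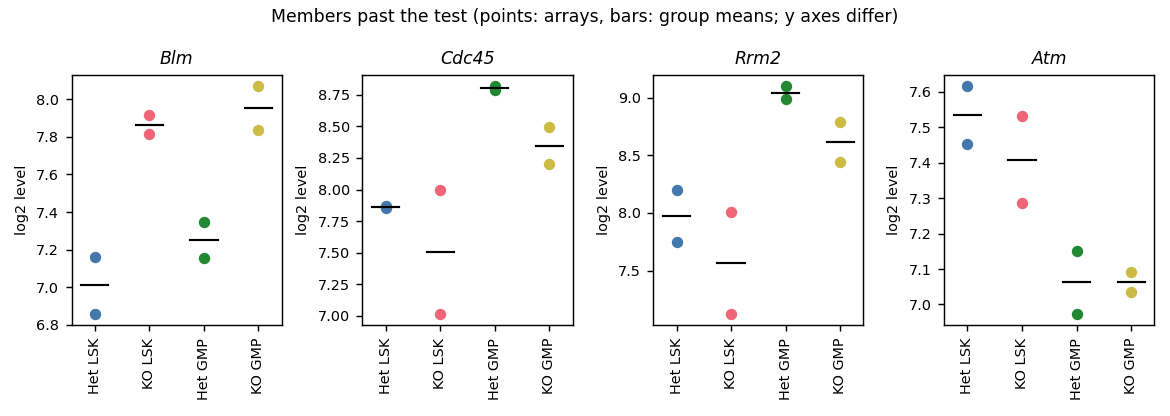
Log2 level (y axis) of Blm, Cdc45, Rrm2 and Atm, the 4 genes that passed limma's test in at least 1 comparison, on each array (points) with the group mean (bar); the y axes differ. All 4 KO points of Blm, from 7.81 to 8.07, lie above its Het points, from 6.86 to 7.35.

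The bases just before the Blm start site are shown because Blm was the only one of the 41 genes called between genotypes. They come from the RefSeq promoter table (GRCm38.p6, minus strand, chr7:80534999-80535198), with CCAAT boxes on either strand and 1 Runx match in capitals.
Blm: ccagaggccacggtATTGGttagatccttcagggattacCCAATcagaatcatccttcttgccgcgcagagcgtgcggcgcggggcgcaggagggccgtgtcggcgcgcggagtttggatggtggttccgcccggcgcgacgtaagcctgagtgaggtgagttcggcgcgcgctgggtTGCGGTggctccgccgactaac
The CCAAT boxes begin at -186 and -161 from the start site and the Runx match, TGCGGT, at -22. Over windows of 300 bases (250 before to 50 after the start), searched on both strands, a Runx match (TGTGGT or TGCGGT) stood in 12 of 41 windows of the genes studied, 29.3%, and in 22.4% of 32851 windows of all genes. A Runx match also stood at Atr, Fanca, Fancc, Fancg, Mcm10, Mcm3, Mcm6, Orc6, Rad54l and Rrm1, which were not called between genotypes. These matches describe letters, not bound sites.

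The licensing genes shared E2F letters more often than a Runx match. These letters (TTTCCCGC, TTTGGCGC, TTTCGCGC or TTTGCCGC, either strand) stood in 11 of 41 windows, 26.8%, against 2.26% of all 32851 windows. The windows covered 36 of 41 genes, and a gene can have several. Origin licensing held 7 of the 11 genes with a match, among 9 licensing genes with a window. These were Orc1, Cdc6, Cdt1, Mcm3, Mcm5, Mcm6 and Mcm7. The remaining matches were at Pola1, Lig1, Fancg and Brca2. One stretch for each licensing gene is given with the E2F letters in capitals, because this motif was shared by most of that group. They lie at chr4:108579407-108579453 (Orc1, plus strand), chr11:98907993-98908040 (Cdc6, plus), chr8:122568036-122568064 (Cdt1, plus), chr1:20820275-20820304 (Mcm3, minus), chr8:75109336-75109383 (Mcm5, plus), chr1:128359788-128359835 (Mcm6, minus) and chr5:138172021-138172068 (Mcm7, minus), all GRCm38.p6.
Orc1: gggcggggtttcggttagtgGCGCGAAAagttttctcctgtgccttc
Cdc6: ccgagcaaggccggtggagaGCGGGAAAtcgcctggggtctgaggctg
Cdt1: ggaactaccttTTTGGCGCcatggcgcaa
Mcm3: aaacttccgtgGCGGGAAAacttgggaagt
Mcm5: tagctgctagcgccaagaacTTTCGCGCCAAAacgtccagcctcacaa
Mcm6: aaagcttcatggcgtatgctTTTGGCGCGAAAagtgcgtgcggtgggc
Mcm7: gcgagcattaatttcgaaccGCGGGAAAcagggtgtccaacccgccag
The printed capitals begin before the start site at Orc1 (-27), Cdc6 (-138), Mcm5 (-153), Mcm6 (-110) and Mcm7 (-165). At Cdt1 (33) and Mcm3 (20) they lie after it. The runs of 12 capitals at Mcm5 and Mcm6 are pairs of overlapping matches on opposite strands. A CCAAT box stood in 65.9% of the windows of the genes studied and 37.4% of all windows, and the cell cycle homology element TTTGAA in 7.32% and 17.9%. No E2F letters stood within the windows of Blm, Cdc45, Rrm2 and Atm.

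For the licensing genes in LSK, 0 of 10 passed the genotype test and 8 of 10 differences were negative. Cdt1, the loading factor that is destroyed once S phase begins, measured 7.90 and 7.50 in Het LSK and 7.06 and 7.51 in KO LSK, a difference of -0.41 (SE 0.19, limma adjusted p = 0.264). One KO array lay level with the lower Het array, within 0.02, and the other lay below both. Mcm7, a subunit of the helicase ring, measured 9.26 and 8.98 in Het LSK and 8.53 and 8.96 in KO LSK, a difference of -0.38 (SE 0.16, adjusted p = 0.246). Its groups did not overlap, by a margin of under 0.1. Orc1, the largest subunit of the origin recognition complex, ran the other way at 5.98 and 5.43 against 5.67 and 6.19, with overlapping groups. Mcm4, at 8.51 and 8.23 against 7.99 and 8.63, had its KO arrays on either side of the Het pair, as did Orc6, Cdc6, Mcm2, Mcm5 and Mcm6.

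The helicase activators also showed the replicate split, with a median gap of 0.84 between the KO LSK arrays. Cdc45, the helicase cofactor, measured 7.87 and 7.86 in Het LSK and 7.01 and 7.998 in KO LSK, so that 1 KO array lay below and 1 above a tight Het pair. Mcm10, which helps to start unwinding, measured 6.86 and 6.68 against 5.93 and 6.87. Gins2 measured 8.82 and 8.80 against 8.33 and 8.74 and did not overlap, with a difference of -0.27 (adjusted p = 0.358). Without KO LSK replicate 2, Cdc45 differed by -0.85, Mcm10 by -0.84, Tyms by -0.80 and Brip1 by -0.65.

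At the fork, 0 of 7 genes passed and all 7 differences were negative, from -0.31 to 0.00. Rpa2, a subunit of the single-strand binding protein, measured 8.31 and 8.17 in Het LSK against 7.72 and 8.15 in KO LSK, and its groups just failed to overlap. Pcna, the sliding clamp, measured 10.98 and 10.79 against 10.67 and 11.09. Its difference was 0.00 with an SE of 0.15. Of the nucleotide genes, Rrm2, the regulated subunit of ribonucleotide reductase, measured 8.20 and 7.75 against 7.12 and 8.01, a difference of -0.41 (SE 0.27, adjusted p = 0.483). Tyms, thymidylate synthase, measured 8.54 and 8.28 against 7.60 and 8.60.

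None of the repair genes other than Blm passed in LSK. Among the Fanconi core genes, Fancb, a scaffold of the ligase module, measured 5.04 and 5.12 in Het LSK against 5.18 and 5.75 in KO LSK without overlap, a difference of 0.39 (adjusted p = 0.296). Without KO LSK replicate 1 this difference was 0.67. Fancd2, a subunit of the ID clamp that the core complex ubiquitinates, measured 6.34 and 6.21 against 5.74 and 6.38. Brca1 measured 6.63 and 6.31 against 5.995 and 6.66, and Brca2, a mediator of strand exchange, measured 7.03 and 6.75 against 6.65 and 7.20. Chek1, the effector kinase of Atr, measured 6.92 and 6.90 against 6.49 and 7.45. In each of these 4 genes the KO arrays lay on either side of the Het pair.

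Groups did not overlap for 2 of 41 genes in the higher direction, Fancb and Blm, where 22.8% of all rows did. In the lower direction they were 4 of 41, Mcm7, Gins2, Rpa2 and Fancm, where 22.7% of all rows did. Both shares were below those of all rows. Beside these values, 9 of 9 B cell markers fell in KO LSK: their summed level, on a log2 scale, was 11.6 to 12.1 on the Het LSK arrays and 8.51 to 9.05 on the KO LSK arrays. Of megakaryocyte markers 5 of 8 rose and 1 fell, with a summed level of 9.91 to 9.95 in Het LSK and 11.6 to 11.9 in KO LSK. The part of these cell types in the levels of the 41 genes was not tested.

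**Figure D4:**
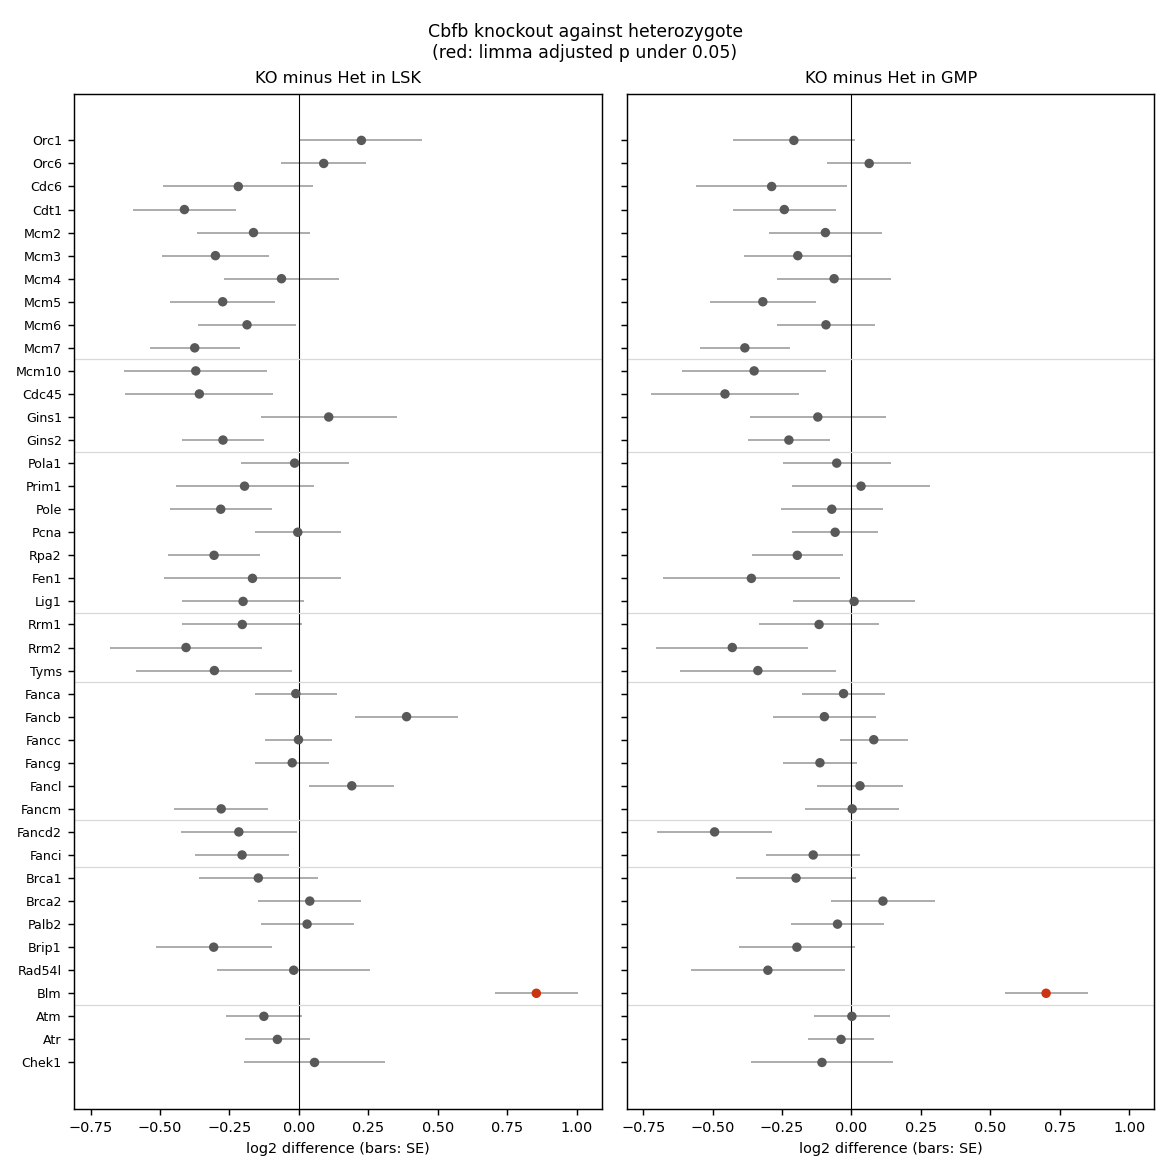
KO minus Het on the log2 scale (x axis) for each of the 41 genes, in LSK (left) and GMP (right); points are differences of group means of 2 arrays, bars are SE, and red marks limma adjusted p under 0.05. Blm is the only red point in each panel, at 0.86 and 0.70, and 32 of 41 points lie below 0 in each.

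The same question in GMP gave 1 gene that rose, Blm, and 0 that fell, where 6.02% of all rows passed. The differences ran from -0.49 for Fancd2 to 0.70 for Blm, with a median of -0.11 against -0.02 over all rows, and 32 of 41 were negative. The median was -0.0465 without KO GMP replicate 1 and -0.20 without KO GMP replicate 2. The GMP arrays lay closer together than the LSK arrays. For 18 of 41 genes, 43.9%, both KO GMP arrays lay below both Het GMP arrays, where 27.9% of all rows did. For 2 of 41, Brca2 and Blm, both lay above, where 23.4% of all rows did. Only 3 of 41 had an unadjusted p under 0.05, as did 3759 of the 21789 rows.

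The licensing genes made up 7 of those 18. Mcm7 measured 9.16 and 9.25 in Het GMP against 8.83 and 8.81 in KO GMP, a difference of -0.38 (SE 0.16, adjusted p = 0.265). Mcm5 measured 8.52 and 8.51 against 8.08 and 8.32, a difference of -0.32 (SE 0.19, adjusted p = 0.464). Orc1, Cdc6, Mcm3 and Mcm6 also lay lower without overlap, as did Cdt1 at 8.06 and 8.20 against 7.82 and 7.96. None of the licensing genes passed the test.

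Of the helicase activators, Cdc45 measured 8.79 and 8.82 in Het GMP against 8.20 and 8.50 in KO GMP, a difference of -0.46 (SE 0.27, adjusted p = 0.454). Both KO values lay below both Het values. Mcm10, at 7.41 and 7.26 against 6.89 and 7.08, and Gins2, at 9.02 and 8.96 against 8.72 and 8.80, were separated in the same direction. At the fork, Fen1, the flap endonuclease of Okazaki fragments, measured 7.55 and 7.45 against 7.07 and 7.21. Pola1, Prim1 and Lig1 differed by under 0.1 in either direction.

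Rrm2 measured 9.10 and 8.99 in Het GMP against 8.44 and 8.79 in KO GMP, a difference of -0.43 (SE 0.27, adjusted p = 0.501). Fancd2 measured 6.97 and 6.61 against 6.27 and 6.32, a difference of -0.49 (SE 0.21, adjusted p = 0.264) and the most negative of the 41. Its partner Fanci, at 6.15 and 6.20 against 5.80 and 6.26, overlapped. Brca1 measured 6.92 and 6.95 against 6.60 and 6.87. Of the kinases, Atm measured 6.97 and 7.15 against 7.09 and 7.04, with a difference of 0.00 and an SE of 0.14. Beside these values, 8 of 8 megakaryocyte markers rose in KO GMP, from a summed log2 level of 8.57 to 9.01 to one of 12.0 to 12.3. Of 10 granule and GMP markers 3 fell and 0 rose (median difference -0.42), and of 8 LSK markers 2 rose and 0 fell. Of 10 mast cell and basophil markers 2 rose and 3 fell, and of 7 erythroid markers 2 rose and 1 fell. The part of such cells in the levels of the 41 genes was not tested.

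The next comparison set GMP against LSK within Het, which asks how the 2 stages differ with 1 Cbfb allele intact. Of the 41 genes, Cdc45 and Rrm2 rose and Atm fell (limma), where 17.5% of all rows passed. The median difference was 0.20 against 0.01 over all rows, and 32 of 41 were positive. It was 0.12 without Het LSK replicate 2 or with quantile normalization. For 24 of 41 genes, 58.5%, both Het GMP arrays lay above both Het LSK arrays, where 29.7% of all rows did. For 3 of 41, Mcm6, Fancc and Atm, both lay below, where 28.2% of all rows did. With each array's median subtracted, the median of all rows moved from 0.01 to 0.16 and that of the 41 genes to 0.35. Of the 41, 5 then passed, all higher, where 4772 of the 21789 rows passed, 3203 of them higher. Het LSK arrays enter both this comparison and KO against Het in LSK, so these are not independent of each other. In each genotype the LSK and GMP arrays share its 2 mice, yet the tests between cell types took them as independent.

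Rrm2 measured 8.20 and 7.75 in Het LSK and 9.10 and 8.99 in Het GMP, a rise of 1.07 (SE 0.27, limma adjusted p = 0.0262). Cdc45 rose by 0.94, from 7.87 and 7.86 to 8.79 and 8.82 (SE 0.27, limma adjusted p = 0.0410). In both genes the GMP pair was tight and lay far above the LSK pair. Atm, the kinase that answers double-strand breaks, fell by 0.47, from 7.62 and 7.45 to 6.97 and 7.15 (SE 0.14, limma adjusted p = 0.0428). The Rrm2 call was lost without Het LSK replicate 2 or either Het GMP array, with differences of 0.84 to 1.13. The Cdc45 and Atm calls were lost without any 1 of the Het LSK, Het GMP or KO GMP arrays, with adjusted p of 0.0551 to 0.163 for Cdc45 and 0.0703 to 0.245 for Atm. All 3 were lost with every row tested, Cdc45 (0.0779) and Rrm2 (0.0520) with quantile normalization, and Atm with array medians subtracted (0.152). The KO LSK arrays belong to neither group and enter only through the pooled spread. Leaving either out changed none of these differences. The calls of Rrm2, Cdc45 and Atm then held, and further genes passed, all of them higher in Het GMP. More of all rows passed too. With only the 4 arrays compared, 9 of the genes studied passed, as did 4122 of the 21789 rows. With every array fitted these counts were 3 and 3813.

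The bases before the start sites of Rrm2 (chr12:24708054-24708253, plus strand) and Cdc45 (chr16:18811973-18812172, minus strand) are shown because these genes rose from LSK to GMP. CCAAT boxes on either strand are in capitals, from the same RefSeq table and build.
Rrm2: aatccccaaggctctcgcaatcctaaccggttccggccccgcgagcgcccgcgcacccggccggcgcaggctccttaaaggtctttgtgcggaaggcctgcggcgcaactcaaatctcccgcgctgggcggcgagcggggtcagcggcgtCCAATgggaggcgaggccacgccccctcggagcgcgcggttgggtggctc
Cdc45: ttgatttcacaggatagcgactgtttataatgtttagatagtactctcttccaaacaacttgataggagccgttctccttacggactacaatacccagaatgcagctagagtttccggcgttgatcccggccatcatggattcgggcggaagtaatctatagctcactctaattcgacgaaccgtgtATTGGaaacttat
Each of these windows holds CCAAT letters and neither holds a Runx match.

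The licensing genes showed 9 of 10 positive differences from Het LSK to Het GMP, and none passed. Orc1 was closest, from 5.98 and 5.43 to 6.54 and 6.33, a difference of 0.73 (SE 0.22, limma adjusted p = 0.0507). It passed under several alternatives, at adjusted p of 0.0250 to 0.0476, and missed under others, by most without Het LSK replicate 2 (0.309). Cdc6, which recruits the loading machinery, went from 7.05 and 6.67 to 7.24 and 7.41. Cdt1 went from 7.90 and 7.50 to 8.06 and 8.20. Mcm6 was the exception, from 9.96 and 9.81 to 9.77 and 9.77, a difference of -0.11. All 4 helicase activators were higher without overlap: Gins1 differed by 0.62 (adjusted p = 0.130) and Mcm10 by 0.56 (adjusted p = 0.188).

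Fork genes divided. Fen1 went from 7.10 and 6.50 to 7.55 and 7.45, a difference of 0.70 (SE 0.32, adjusted p = 0.185), whereas Pola1, Pole and Pcna had negative differences of -0.14 to -0.05. Fanca, a core subunit, went from 6.65 and 6.45 to 7.03 and 6.97, a difference of 0.45 (SE 0.15, limma adjusted p = 0.0722). Fancd2 differed by 0.51 and Fancb by 0.50, without passing. Fancc and Fancl, the ligase subunit of the core complex, had negative differences of -0.22 and -0.26. All 6 recombination genes were higher on average in Het GMP, by 0.15 to 0.46, and none passed. Brca1 was the largest, from 6.63 and 6.31 to 6.92 and 6.95 (adjusted p = 0.196). Atr and Chek1 differed by -0.04 and 0.13.

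**Figure D5:**
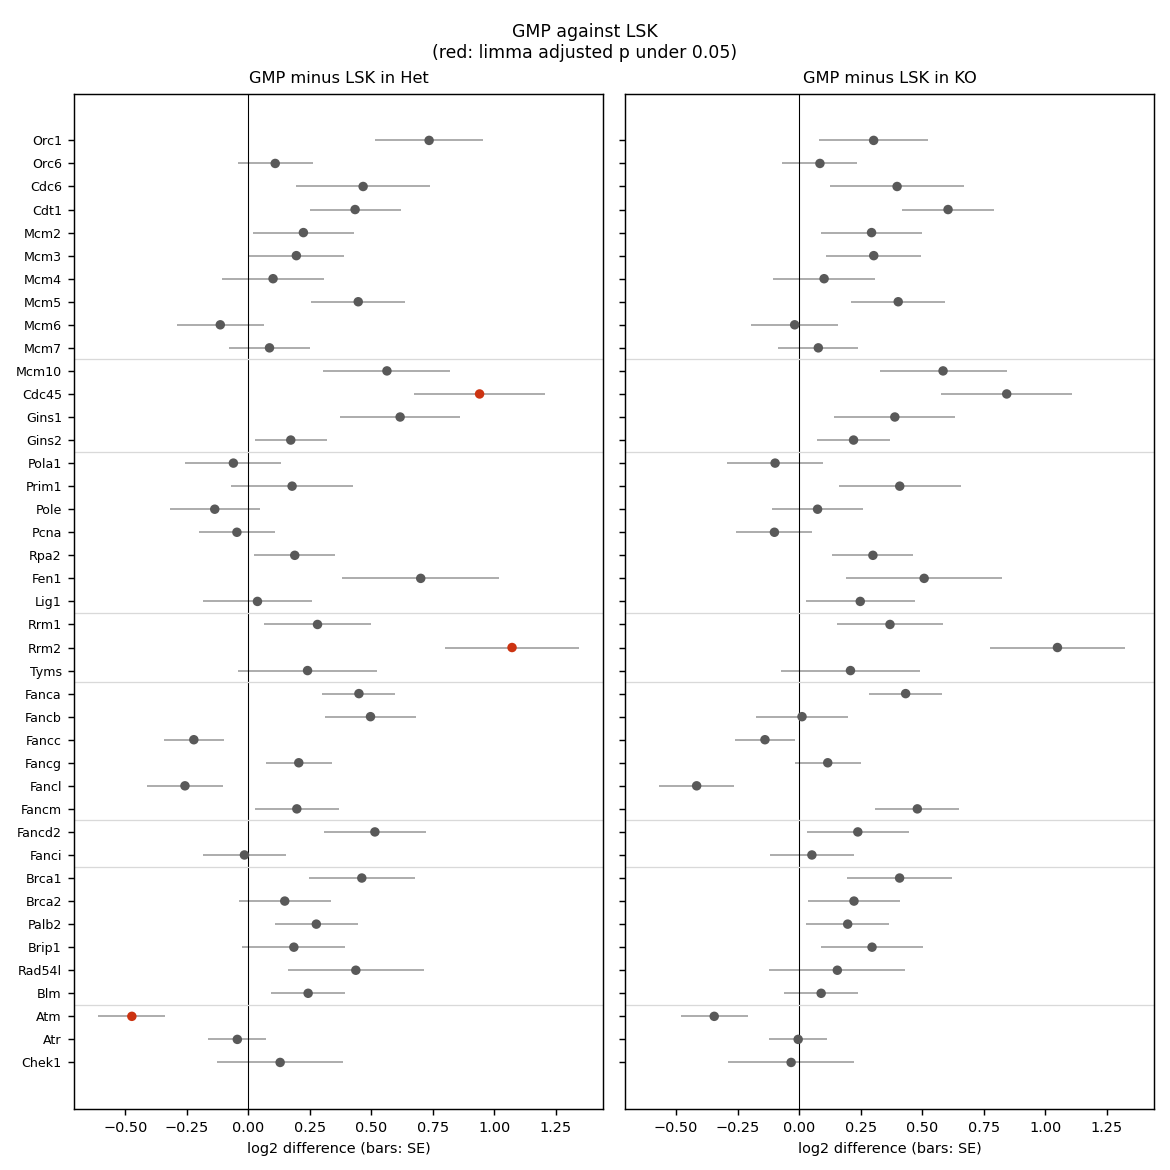
GMP minus LSK on the log2 scale (x axis) for each of the 41 genes, in Het (left) and KO (right); points are differences of group means of 2 arrays, bars are SE, and red marks limma adjusted p under 0.05. Cdc45, Rrm2 and Atm are red in Het, at 0.94, 1.07 and -0.47, and no gene is red in KO.

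In KO, 0 of the 41 genes passed limma's test between GMP and LSK, where 6.05% of all rows passed. An unadjusted p under 0.05 was met by 7 of the 41 genes and by 4189 of the 21789 rows. The median difference was 0.22 against -0.02 over all rows, and 33 of 41 were positive. Rrm2 went from 7.12 and 8.01 in KO LSK to 8.44 and 8.79 in KO GMP, a difference of 1.05 (SE 0.27, limma adjusted p = 0.0604). Cdc45 went from 7.01 and 7.998 to 8.20 and 8.50, a difference of 0.84 (SE 0.27, adjusted p = 0.115). Atm differed by -0.35 (SE 0.14, adjusted p = 0.203). These 3 genes had the sign they had in Het, with KO LSK arrays far apart for Rrm2 and Cdc45.

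Cdt1 differed by 0.60 in KO (adjusted p = 0.104), Fancm, which anchors the core complex to DNA, by 0.48 (0.161), and Fancl by -0.42 (0.174). Both KO GMP arrays lay above both KO LSK arrays for 7 of 41 genes, where 21.5% of all rows did. These were Cdt1, Mcm10, Cdc45, Rrm2, Fanca, Fancg and Fancm. They lay below for Fancc, Fancl and Atm, 3 of 41, where 26.0% of all rows did. The comparison turned on 1 array: the median was 0.56 without KO LSK replicate 2 and -0.05 without KO LSK replicate 1.

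The interaction asked whether the genotype effect differed between GMP and LSK. Its test, too, took the LSK and GMP arrays of a genotype as independent. Of the 41 genes 0 passed limma's test, where 2.29% of all rows passed. An unadjusted p under 0.05 was met by 0 of the 41 and by 2858 of the 21789 rows. The median was -0.02, the same as over all rows, and 19 of 41 were positive. Its value was -0.26 without KO LSK replicate 1 and 0.28 without replicate 2. The largest difference was that of Fancb, at -0.49 (SE 0.26, adjusted p = 0.500). SEs of the 41 ran from 0.17 to 0.45, so a difference between cell types of that order was not detectable with 2 arrays a group.

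Other genes of the same processes were read from 7 further lists. Beside their counts, 7.73% of all rows passed in LSK and 6.02% in GMP between genotypes. Between cell types 17.5% passed in Het and 6.05% in KO, and 2.29% passed for the interaction. In the same order, 4268, 3759, 6364, 4189 and 2858 of the 21789 rows had an unadjusted p under 0.05. Of 40 other replication genes, 1 fell in KO LSK, Chaf1b, a subunit of the chromatin assembly factor, from 7.05 and 7.05 to 6.18 and 6.55 (difference -0.68, SE 0.16, limma adjusted p = 0.0301). Its call was lost without either Het LSK array or KO LSK replicate 1 (adjusted p of 0.113 to 0.136) and with array medians subtracted (0.0671). In GMP 0 passed between genotypes, with 3 at an unadjusted p under 0.05. From Het LSK to Het GMP, 2 rose: Rpa3, the small subunit of the single-strand binding protein, by 0.55, and Chtf18, of a clamp loader, by 0.53 (adjusted p of 0.0373 and 0.0491). Both were lost without any 1 of the Het or KO GMP arrays. The Rpa3 call was also lost with the mean of its rows standing for the gene (difference 0.49, limma adjusted p = 0.0902). Quantile normalization (0.0622) and testing every row (0.0898) ended it too. Chtf18 was lost with every row tested (0.110). In KO 0 of 40 passed, with 6 at an unadjusted p under 0.05. The list's median difference was -0.15 in LSK and -0.19 in GMP between genotypes, and 0.33 in Het and 0.21 in KO between cell types.

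Of 9 measured genes of 10 listed for nucleotide supply, 0 passed in any of the 5 comparisons, with 0 to 5 at an unadjusted p under 0.05. The largest difference between genotypes was that of Dck, deoxycytidine kinase, at -0.64 in LSK (limma adjusted p = 0.0891). Of 27 measured Fanconi and recombination genes, Top3a passed. Its product is the topoisomerase that works with Blm. It measured 6.08 and 5.82 in Het LSK, 5.82 and 5.72 in KO LSK, 6.50 and 6.58 in Het GMP and 5.999 and 5.97 in KO GMP. It rose by 0.59 from Het LSK to Het GMP (limma adjusted p = 0.0118) and fell by 0.56 in KO GMP against Het GMP (0.0358). The genotype call was lost without any 1 of the GMP arrays (adjusted p of 0.149 to 0.198), and the cell type call without Het LSK replicate 2 or either Het GMP array (0.0570 to 0.0922). The direction was opposite to that of Blm in KO GMP, where both were called; this was seen after the values were known.

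Among 18 measured checkpoint and end joining genes, Xrcc6, which encodes the Ku70 subunit that binds broken ends, fell in KO LSK by 0.97 (SE 0.13, limma adjusted p = 0.00161). It measured 7.89 and 7.77 in Het LSK, 6.76 and 6.97 in KO LSK, 7.43 and 7.29 in Het GMP and 7.25 and 7.24 in KO GMP. Its genotype effect was smaller in size in GMP: the interaction was 0.86 (SE 0.18, limma adjusted p = 0.0460), a call that was lost without any 1 array except KO LSK replicate 2 (adjusted p of 0.0714 to 0.169) with array medians subtracted (0.106) and with every row tested (0.134). Chek2, the effector kinase of Atm, rose by 0.54 in KO LSK (SE 0.11, limma adjusted p = 0.0185), from 6.65 and 6.58 to 7.11 and 7.21. This was lost without either Het LSK array or KO LSK replicate 2 (adjusted p of 0.0707 to 0.110). In GMP it differed by 0.41 and did not pass (adjusted p = 0.0706).

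Between the cell types in Het, Xrcc5, the Ku80 subunit, fell by 1.23 in GMP (SE 0.15, limma adjusted p = 0.000559) and Trp53bp1, a break-site scaffold, by 0.99 (SE 0.14, adjusted p = 0.00140). Rad17, the loader of the checkpoint clamp, rose by 0.79 (adjusted p = 0.00453). These 3 calls held in each of the alternatives run. Cdc25a, the phosphatase that checkpoints restrain, rose by 0.52 (adjusted p = 0.0229), a call lost without Het LSK replicate 2 or either Het GMP array. The list had 2 higher and 3 lower calls in Het, Xrcc6 being the third lower one. In KO it had 2 higher, Nhej1 by 0.64 (adjusted p = 0.0179) and Cdc25a by 0.54 (adjusted p = 0.0428). The call of Nhej1 was lost without KO LSK replicate 1 or either KO GMP array, and that of Cdc25a without any 1 of the 8 arrays.

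Of 11 measured mismatch and base excision genes, Parp1, a sensor of strand breaks, fell by 0.47 in KO LSK (SE 0.12, limma adjusted p = 0.0470), from 8.81 and 8.65 to 8.20 and 8.32. The call was lost without any 1 of the 8 arrays (adjusted p of 0.0686 to 0.224). In the other comparisons 0 passed, and 0 had an unadjusted p under 0.05. Of 22 measured mitosis genes 0 passed between genotypes in either cell type, with 1 at an unadjusted p under 0.05 in LSK and 0 in GMP. Aurka rose by 0.78 from Het LSK to Het GMP (limma adjusted p = 0.0292), which was lost without any 1 of the Het arrays. The mitosis list's medians, -0.22 and -0.21 between genotypes and 0.31 and 0.36 between cell types, had the signs of those of the 41 genes.

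Of 14 regulators of E2F activity and the G1/S step, 0 passed between genotypes, with 0 in LSK and 1 in GMP at an unadjusted p under 0.05. From Het LSK to Het GMP, 5 rose and 1 fell, where 17.5% of all rows passed in either direction. Mybl2, an activator of mitotic genes, rose by 1.07, from 7.04 and 7.00 to 8.16 and 8.01 (limma adjusted p = 0.0171). E2f8, a repressor of the E2F family, rose by 0.79 (adjusted p = 0.0266) and Tfdp1, the dimer partner of E2F proteins, by 0.65 (adjusted p = 0.0247). Rbl2, the p130 protein that holds E2F genes silent in resting cells, fell by 0.62, from 7.56 and 7.77 to 6.95 and 7.14 (adjusted p = 0.0161). The calls of Mybl2, E2f8 and Tfdp1 were lost without any 1 of the 4 Het arrays. That of Rbl2 was lost without Het LSK replicate 2 or Het GMP replicate 1. Quantile normalization ended the calls of E2f8 (limma adjusted p = 0.0561) and Tfdp1 (0.104), and array medians subtracted that of Rbl2 (0.0555). With every row tested, Mybl2, E2f8 and Tfdp1 were lost (0.0652 to 0.0825). The other two that rose in Het were E2f1 and Cdc25a. In KO, 1 of 14 rose, Cdc25a, which stands in both lists.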

How the data were processed

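Affymetrix Mouse Gene 1.0 ST arrays were hybridised with RNA of 8 samples. The authors deposited log2 expression values made with RMA, per the submitters' processing notes; its software and version, like the genome build, were not given in the sources used here. RMA equalises the distribution of the arrays, which hides any change common to all transcripts, and amplification can compress differences. No detection calls were used.

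Symbols came from the platform annotation: of 35556 rows, 21789 had 1 symbol, 1621 several and 12146 none. limma (3.58.1, R 4.3.3) was fitted with 1 mean for each of 4 groups over 8 arrays (4 residual and 4.83 prior degrees of freedom), two-sided, in 5 contrasts, with Benjamini-Hochberg adjustment over the 21789 rows. The code was tested on simulated data. The arrays are labelled biological replicates but no animal is named, so p-values measure only the spread between these arrays; 2 a group limit the precision, and an exact permutation test of 2 against 2 cannot go below 0.333. The labels give no batch.

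Values by array are printed for Cbfb, for genes called between genotypes, and for up to 3 called genes of each role between cell types, or the 2 largest where none passed; others were added after their values were seen. Of each further list up to 4 called genes are named. The genes, lists and tests were chosen with earlier results of these data known. Promoter windows came from RefSeq (GRCm38.p6); 36 of 41 genes had one. Some listed genes were not analysed here. Alternatives changed the scaling, the rows tested, the row standing for a gene, the variance model, the arrays fitted, the block, the threshold, and left out each array in turn; calls of the further lists and the crossed block were added after the data were seen.

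Same-numbered arrays of different groups were checked for shared deviations. The correlations were 0.13 (Het LSK with Het GMP) and 0.18 (KO LSK with KO GMP) within a genotype, and -0.14 to -0.03 in the 4 pairs of groups across genotypes. With 2 mice a genotype, its LSK and GMP arrays share animals. No label says which arrays match, so the numbers were not taken to pair the samples. The tests of GMP against LSK and of the interaction took these arrays as independent.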

Additional observations from a re-analysis of the deposited data

Results flagged for a closer look

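Xrcc6, of the list of other checkpoint and end joining genes, had genotype effects that differed between the cell types by a test of the difference itself: the GMP effect minus the LSK effect was 0.86 on the log2 scale (SE 0.18, limma adjusted p = 0.0460). The call was lost with array medians subtracted (0.106), with every row tested (0.134), with the replicate block (0.0713) and without any 1 array except KO LSK replicate 2 (0.0714 to 0.169). Of the 41 replication and repair genes 0 met this rule (0 at an unadjusted p under 0.05). Groups of 2 arrays are too small to be searched for outlying samples.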

How the results depend on the processing

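Of 3649 results of single genes under the alternatives, 0 called ones changed sign, while 232 with no call in either fit did. Counts of the 41 genes called in LSK ran from 0 to 5 with 1 array left out, and those in GMP from 0 to 1, with 0 when every row was tested. Between the cell types in Het the count of 3 became 5 with array medians subtracted, with only rows above the median level, or at an adjusted p under 0.10. It was 9 with only the 4 arrays compared, 0 with all rows tested, and 0 to 11 with 1 array left out. In KO the count of 0 became 1 (Rrm2) with rows above the median level, with an intensity trend and robust prior, or at 0.10, and 0 to 11 with 1 array left out. The interaction had 0 under each. Over all rows the calls between cell types in Het moved too, from 3813 of 21789 to 4772 with array medians subtracted. They were 4122 with only the 4 arrays compared and 3344 of 35556 with every row tested. Median differences of the 41 ran, with 1 array left out, from -0.20 to -0.0465 in GMP and from 0.12 to 0.29 between cell types in Het. They ran from -0.47 to 0.16 in LSK, from -0.0487 to 0.56 between cell types in KO, and from -0.26 to 0.28 for the interaction, these 3 between the fits without one or the other KO LSK array.

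For the further lists, calls over 4 comparisons are counted. With array medians subtracted, other replication genes went from 3 to 8, nucleotide supply from 0 to 4, Fanconi and recombination from 2 to 4, mismatch and base excision from 1 to 0, and mitosis from 1 to 3. With all rows tested the counts were 0 (replication, mismatch and base excision, mitosis), 1 (Fanconi and recombination), 5 (checkpoint and end joining, from 9) and 2 (E2F and G1/S, from 7). With rows above the median level they were 7, 4 and 3 for replication, Fanconi and recombination, and mitosis, and with the intensity trend 6 for replication and 4 for mitosis. With only the 4 arrays compared they were 9 for replication, 1 for nucleotide supply, 6 for Fanconi and recombination, 0 for mismatch and base excision and 10 for mitosis. Quantile normalization gave 4 for E2F and G1/S. With 1 array left out the ranges were 0 to 23 for replication, 0 to 3 for nucleotide supply, 0 to 10 for Fanconi and recombination, 5 to 7 for checkpoint and end joining, 0 to 2 for mismatch and base excision, 0 to 37 for mitosis and 0 to 13 for E2F and G1/S. The highest was without KO LSK replicate 2 in each list, tied in checkpoint and end joining. The causes were not tested.

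The replicate block fitted a common shift between replicates 1 and 2 over all 4 groups. As it does not pair arrays within a genotype, it cannot tell whether calls would survive such pairing. It left 2 of 3 calls in Het, as Atm was lost (limma adjusted p = 0.0603), and left 0 of 1 call for mismatch and base excision. It ended 4 calls of the further lists: Chtf18 in Het (0.0640), Cdc25a between cell types in KO (0.0667), Parp1 in LSK (0.0735) and the Xrcc6 interaction (0.0713). It changed no other count of the 41 genes. With crossed numbers, tried because Het LSK and KO LSK deviations correlated at -0.14, the counts were 1, 1, 6, 1 and 0 in the 5 comparisons. Over all rows, array medians subtracted moved the share of calls that were higher from 39.0% to 52.4% in LSK, from 45.1% to 67.1% between cell types in Het, and from 73.7% to 58.4% for the interaction.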
